A study of Rattus norvegicus with 4 samples.

Results

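The 5 receptor genes HTR2C, EDNRB, EDNRA, CRHR2 and GABBR1 of the rat choroid plexus are described here, out of 106 G protein-coupled receptors (GPCRs) that the study listed for this tissue and out of 32883 gene IDs in all. They were taken by name from that list, which holds GPCRs transcribed in the male choroid plexus, and each was matched by the Ensembl ID given with its symbol. RNA was sequenced from 9-week-old Sprague Dawley rats that carried no genetic change and received no agent beyond anaesthesia. There were 4 groups with 1 library each: whole choroid plexus pooled from 5 males, whole choroid plexus pooled from 5 females, epithelial cells sorted by FACS (fluorescence-activated cell sorting) from the choroid plexus of 10 males, and proximal tubules picked from digested kidneys of 5 males, which, as the methods read, were the males that also gave the whole choroid plexus. The sorted cells were released with collagenase and selected with an antibody against NKCC1, the Na+,K+,2Cl- cotransporter encoded by SLC12A2. Since each group is 1 pooled library, no difference has a replicate check and no p-value is given. The FACS, female and tubule comparisons share the male choroid plexus library, so their values are given side by side. Every interval is a 95% interval for counting error only.

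The choroid plexus projects into the brain ventricles, where its epithelium secretes most of the cerebrospinal fluid. GPCRs carry signals from outside the cell to G proteins within it. HTR2C encodes the 5-HT2C serotonin receptor, which couples to Gq and Ca2+ release from internal stores, and for which the choroid plexus is a classical site of expression. EDNRA and EDNRB encode the ETA and ETB receptors for endothelin peptides. In vessels, ETA on smooth muscle constricts, while ETB on endothelium releases nitric oxide and also clears endothelin. CRHR2 encodes a receptor for urocortins that couples mainly to Gs and cAMP. GABBR1 encodes the ligand-binding subunit of the GABA-B receptor, which pairs with the GABBR2 subunit to signal through Gi/o.

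The libraries held 23873318 to 28324976 expected counts, the fragments that RSEM estimated for each gene. Abundance is given as TPM, the number of transcripts of a gene per 1000000 transcripts of the library, which corrects for transcript length, and a gene was taken as transcribed from 0.5 TPM. In the proximal tubule library, 70.7% of the counts fell on mitochondrially encoded genes, against 4.32 to 5.34% in the others. The epithelial marker TTR had 238565 TPM in the male choroid plexus against 389655 TPM in the sorted cells and 0.0700 TPM in the tubules, while SLC7A13, a tubular amino acid transporter, had 2055 TPM in the tubules and at most 0.02 TPM elsewhere. Of 10 epithelial markers, 2 (TTR among them) were higher in TPM in the sorted cells than in male tissue. The other 8 were lower, 5 of them by a factor of 2 or more. Of 8 immune cell markers with a name at hand, summed TPM was 849.8 in the male, 553 in the female and 4623 in the FACS library. The FACS sum was 5.44 times the male sum, with 7 markers higher and 1 lower. Most of it came from CD74 (2556 TPM) and LYZ2 (1939 TPM). The sorted library was thus not free of immune cell transcripts, and those of these markers were higher in sum than in whole tissue.

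HTR2C was the highest GPCR in each choroid plexus library. It had 677 TPM (interval 672 to 682, 67510 counts) in the male, 567 TPM (562 to 572, 55476 counts) in the female and 497 TPM (493 to 501, 52922 counts) in the FACS library. The intervals do not overlap, and the order from highest to lowest was male, female, FACS. EDNRB followed in whole tissue, with 150.4 TPM (147 to 154, 6344 counts) in the male, 95.9 TPM (93.0 to 99.0, 3971 counts) in the female and 36.9 TPM (35.1 to 38.7, 1637 counts) in the FACS library. The order of EDNRB in TPM was the same, with wider gaps than those of HTR2C.

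EDNRA was the lowest of the 5 genes. In the RefSeq annotation of GRCr8, another build than that used for mapping, a long noncoding RNA gene overlaps or adjoins Ednra. Whether the genes overlap in the build used was not checked. If they do, reads there could not be told apart, as strandedness is not stated. EDNRA had 4.64 TPM (4.21 to 5.10, 425 counts) in the male, 3.35 TPM (3.0 to 3.72, 343 counts) in the female and 5.00 TPM (4.58 to 5.45, 528 counts) in the FACS library, and the male and FACS intervals overlap. CRHR2 had 28.2 TPM (26.8 to 29.6, 1671 counts) in the male, 24.9 TPM (23.6 to 26.2, 1444 counts) in the female and 30.6 TPM (29.3 to 32.0, 1930 counts) in the FACS library. The 3 libraries thus lay close together for CRHR2. The male and FACS intervals overlap, but the interval of the FACS to male ratio, 1.02 to 1.16, lies just above no difference. GABBR1 had the opposite order in TPM to HTR2C and EDNRB, with 31.9 TPM (30.3 to 33.6, 1486 counts) in the male, 36.9 TPM (35.1 to 38.7, 1603 counts) in the female and 43.8 TPM (41.8 to 45.8, 1865 counts) in the FACS library.

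**Figure D1:**
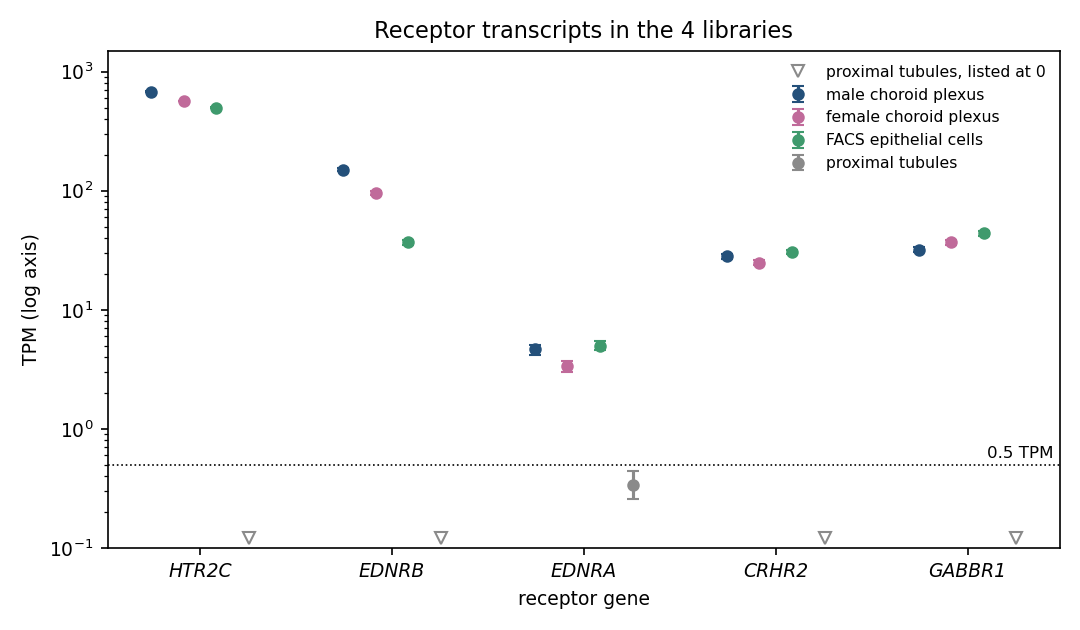
Deposited TPM (log axis) of the 5 receptor genes in the 4 libraries, 1 point per library, with 95% counting intervals as bars. HTR2C sits highest in all 3 choroid plexus libraries, EDNRB steps down from 150.4 to 95.9 to 36.9 TPM, and open triangles at the lower edge mark genes listed at 0 in the proximal tubules, where EDNRA had 0.340 TPM.

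Set against every gene of the male choroid plexus, HTR2C placed 136 by TPM, EDNRB 731, GABBR1 3454, CRHR2 3833 and EDNRA 9762, where 13598 genes reached the cut-off. The median of the listed GPCRs was 2.81 TPM in the male, 2.21 in the female and 4.16 in the FACS library, so that EDNRA, too, was above the median GPCR in each. Together the 5 genes had 892 of 1728 TPM of the 106 GPCRs in the male, which was 51.7%. In the female this share was 49.7% and in the FACS library 42.5%. HTR2C alone made up 39.2%, 38.7% and 34.4%, and EDNRB 8.70%, 6.55% and 2.55%, in the same order. The other 101 GPCRs summed to 835 TPM (male) against 831 TPM (FACS), so the lower share in the sorted cells went with the lower HTR2C and EDNRB values.

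**Figure D2:**
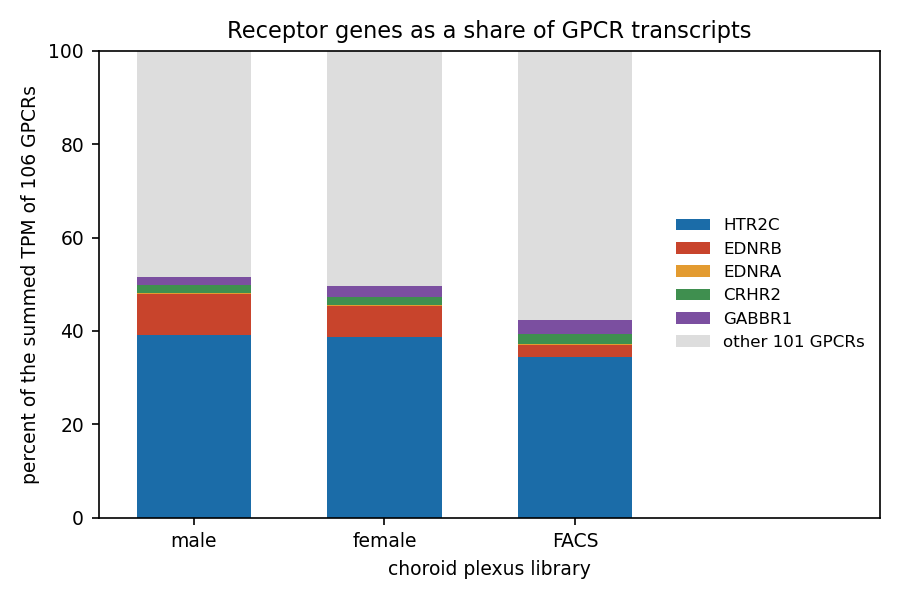
Stacked bars of each receptor gene's percent of the summed TPM of the 106 listed GPCRs in the male, female and FACS choroid plexus libraries. HTR2C fills 39.2, 38.7 and 34.4% of the bars, and the EDNRB segment shrinks from 8.70% in the male to 2.55% in the FACS library.

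By TPM rank among the 106 GPCRs, HTR2C held place 1 in each choroid plexus library. EDNRB held place 2 in both whole tissues and place 7 in the FACS library. GABBR1 moved from place 10 in the male and 9 in the female to 5 in the FACS library, CRHR2 stayed at places 11, 12 and 11, and EDNRA at 44, 46 and 46. Thus 4 of the 5 genes were among the 20 highest of the 106 GPCRs in each choroid plexus library. The study had already named these 4 among its highest GPCRs by male TPM. Their place in the male library was therefore known when the genes were chosen and is no independent result. Ranked by expected count, which favours long transcripts, EDNRB placed 13 in the FACS library. In the male, female and FACS libraries, GABBR1 placed 18, 12 and 10, CRHR2 15, 14 and 9, and EDNRA 34, 34 and 33.

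The place of a gene is only as firm as the gap to the next. In the male choroid plexus the counting intervals of HTR2C and EDNRB are apart from each other and from that of the third gene, ACKR3, an atypical chemokine receptor, at 77.7 TPM. CRHR2 overlaps with the gene below it, the orphan receptor GPRC5C (26.5 TPM). EDNRA overlaps with both neighbours, the oestrogen receptor GPER1 (5.11 TPM) and the chemerin receptor CMKLR1 (4.55 TPM). GABBR1 lay between FZD7, a receptor for Wnt ligands with 35.8 TPM, and CRHR2, and overlaps with neither.

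**Figure D3:**
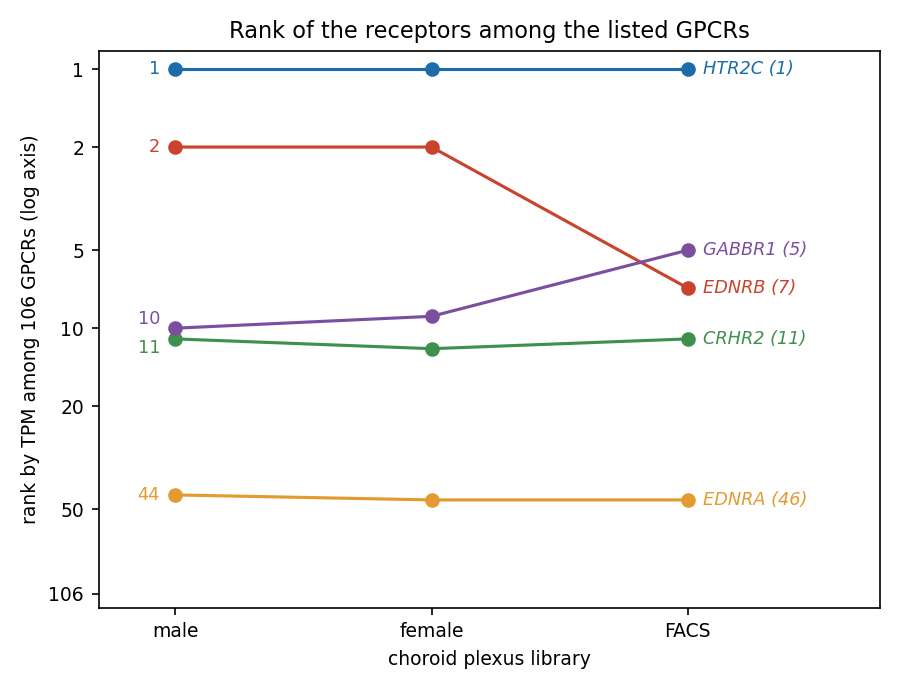
Rank by TPM among the 106 listed GPCRs (log axis, place 1 on top) in the male, female and FACS choroid plexus libraries, 1 line per receptor gene. HTR2C stays at place 1, EDNRB goes from 2 to 7, GABBR1 from 10 to 5, and CRHR2 and EDNRA end at 11 and 46.

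The comparison of sorted cells with whole male tissue sets receptor transcripts of the FACS library beside those of undissociated tissue. The sorted cells came from their own pool of males and were digested, stained and sorted. Selection of cells therefore cannot be told apart from these steps or from the pool. EDNRB was lower in the FACS library by a factor of 4.08 (3.86 to 4.31), while HTR2C was lower by a factor of 1.36 (1.35 to 1.38). GABBR1 was higher by a factor of 1.37 (1.28 to 1.47) and CRHR2 by 1.09 (1.02 to 1.16). For EDNRA, the ratio of FACS to male TPM was 1.08, with an interval of 0.947 to 1.23 that spans no difference, though at the transcript length assigned in the male library it was 1.17 (1.03 to 1.34). In a bulk library, fewer cells of a type and less RNA per cell cannot be told apart.

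These ratios need to be read against the whole library, since the 10 highest genes took 51.5% of the TPM in the FACS library and 35.6% in the male. The log2 ratio was taken after adding a pseudocount of 1 TPM, and its median over the 14024 genes transcribed in at least 1 of the libraries was -0.58. On that scale EDNRB was at -2.00, HTR2C at -0.45, EDNRA at 0.09, CRHR2 at 0.12 and GABBR1 at 0.44. Relative to the median of all genes, EDNRB was at -1.42, HTR2C at 0.14, EDNRA at 0.67, CRHR2 at 0.70 and GABBR1 at 1.02. The direction of HTR2C therefore depends on the reference, being below the whole tissue in TPM and slightly above the typical gene, and GABBR1 passed a factor of 2 only relative to the typical gene.

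Of the 5 genes, 1 (EDNRB) was lower by a factor of 2 or more, as were 25.5% of all genes, and 0 were higher by that factor, as were 4.61% of all genes. The count is close to that background. The size for EDNRB was not: its log2 ratio lay at percentile 2.22 of all genes. With the pseudocount, genes of low male TPM, the median listed GPCR among them, could not reach -2.00, which limits that percentile. Among the 56 GPCRs with at least 5 TPM in either library, EDNRB had the lowest ratio. Next among these were the nucleotide receptor P2RY4 at -1.47 and the Wnt receptor FZD3 at -1.43. At the other end were the chemerin-binding receptor CCRL2 at 3.86, the hydroxycarboxylic acid receptor HCAR2 at 3.54 and the orphan receptor GPR171 at 3.07. With the female choroid plexus as the whole tissue, the log2 ratio of EDNRB was -1.36, the smallest of the settings tried. EDNRA, CRHR2 and GABBR1 lay at percentiles 81.0, 81.8 and 89.5 of all genes, and HTR2C at 57.4. The 106 GPCRs as a list had a median of -0.05, with 15 higher and 8 lower by a factor of 2, and 81 of them lay above the median of all genes.

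**Figure D4:**
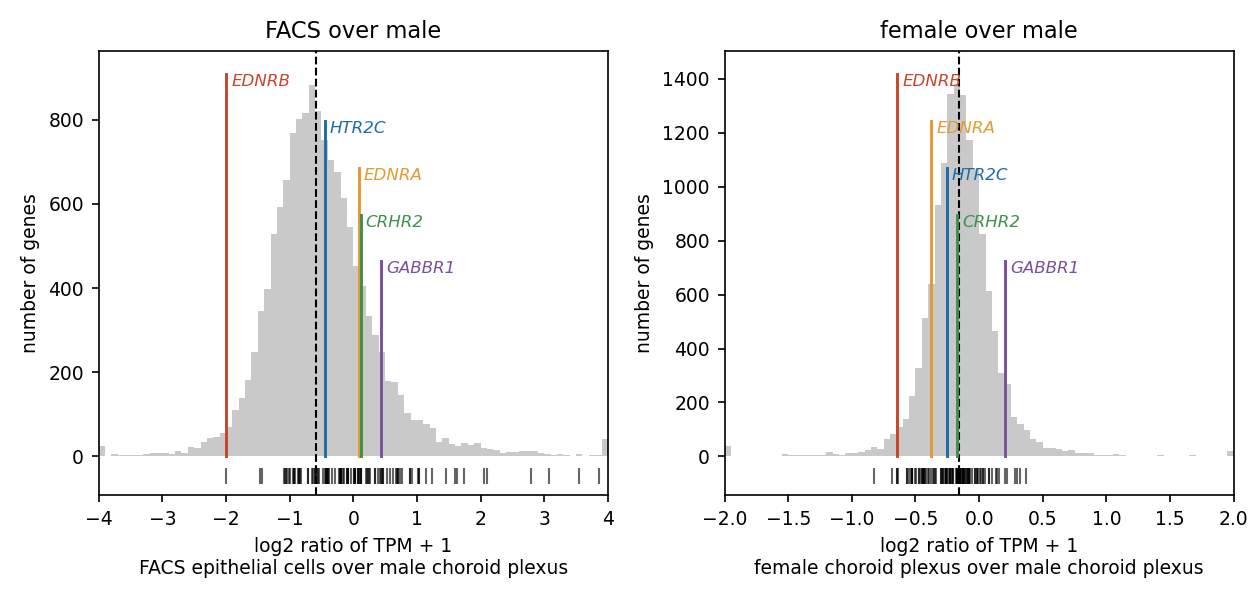
Histograms of the log2 ratio of TPM + 1 over all transcribed genes, FACS over male on the left and female over male on the right, with values past the axis ends gathered in the outer bins, the median of all genes dashed, the 106 GPCRs as ticks below and the 5 receptor genes as labelled lines. EDNRB lies in the lower tail of both, at -2.00 and -0.64, and GABBR1 is the rightmost of the 5 at 0.44 and 0.20.

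Ratios between genes within a library do not depend on how the library was scaled. EDNRB exceeded EDNRA in TPM by a factor of 32.4 (29.4 to 35.8) in the male, 28.6 (25.6 to 32.1) in the female and 7.37 (6.68 to 8.15) in the FACS library. The male and female intervals overlap, and the FACS value is apart from both. On counts, however, EDNRB relative to EDNRA was lower in the female than in the male, with a ratio of 0.776 (0.669 to 0.899). HTR2C exceeded EDNRB by a factor of 4.50 (4.39 to 4.62) in the male, 5.91 (5.72 to 6.11) in the female and 13.5 (12.8 to 14.2) in the FACS library. Taken on counts, EDNRB was lower in sorted cells than in male tissue by a factor of 3.04 relative to HTR2C, 4.48 relative to CRHR2, 4.81 relative to EDNRA and 4.86 relative to GABBR1. The difference of EDNRB from each of the other 4 genes was thus larger than counting error on any scaling.

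As a share of all counts, without correction for length, FACS cells and whole male tissue differed less for HTR2C and more for the 3 genes with higher values. The ratio of FACS to male was 0.930 (0.920 to 0.941) for HTR2C and 0.306 (0.290 to 0.323) for EDNRB. It was 1.47 (1.29 to 1.68) for EDNRA, 1.37 (1.28 to 1.46) for CRHR2 and 1.49 (1.39 to 1.60) for GABBR1. For a gene of unchanged length, the TPM ratio was 0.801 times the ratio of count shares, a factor common to the library.

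GABBR1 and EDNRA also differed in effective length, the number of start positions for a fragment, which RSEM weights over the transcripts of a gene. Relative to the male library, most genes shared 1 shift in length, of -17.05 bases in the FACS library and -3.4 bases in the female. GABBR1 had 1899 bases in the male and 1636 in the FACS library. Beyond the common shift its length differed from the male by -12.9% in the FACS library and by -4.79% in the female, which means that RSEM assigned its transcripts in another mix. At the male length, its FACS to male ratio would be 1.19 (1.11 to 1.28) instead of 1.37 and its female to male ratio 1.10 (1.02 to 1.18) instead of 1.15. EDNRA was longer by 8.97% in the FACS library and by 14.0% in the female, on 343 to 528 counts. At the male length, its FACS to male ratio would be 1.17 instead of 1.08, with an interval above 1, and its female to male ratio 0.823 (0.712 to 0.951) instead of 0.722. HTR2C and CRHR2 differed in length between FACS and male by 0.928% and 0.700%, and EDNRB by 0%.

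Marker genes moved between sorted cells and tissue as well. Of 10 epithelial markers, 2 were higher in TPM in the FACS library and 5 were lower by a factor of 2 or more, with a median log2 ratio of -0.91. Among them, TTR was at 0.71 and SLC4A5, a Na+,HCO3- cotransporter, at -1.49. The 9 endothelial markers with a name had a median of 0.19 and a summed level of 195 TPM in the male, 164 in the female and 272 in the FACS library. Of them, 5 were higher and 4 lower in the FACS library, where PLVAP alone had 177.9 TPM, against 104.9 TPM in the male. The 5 named mesenchymal and mural markers ranged from -1.29 to 1.23 and summed to 353, 268 and 381 TPM. Of these, 3 were lower and 2 higher in the FACS library, where the matrix gene DCN had 239.1 TPM, against 101.5 TPM in the male. The 8 immune markers, 7 of them higher in the FACS library, ranged from -0.19 to 2.89.

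EDNRB was lower than each of the 40 named markers, whose lowest log2 ratio was -1.49. This is no like comparison for all of them. With the pseudocount, markers of low male TPM, such as C3AR1 (1.51 TPM) and SLC22A6 (0.15 TPM), could not have fallen as far. The mesenchymal genes that were lower by a factor of 2 were RGS5, a regulator of G protein signalling in pericytes, at -1.05 and the collagen receptor DDR2 at -1.29, whereas the matrix gene DCN was at 1.23. The part of other cell types in the EDNRB difference was not tested. SLC12A2, whose protein was used for the sort, was at -0.83, with 268 TPM (male) against 150.3 TPM (FACS).

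**Figure D5:**
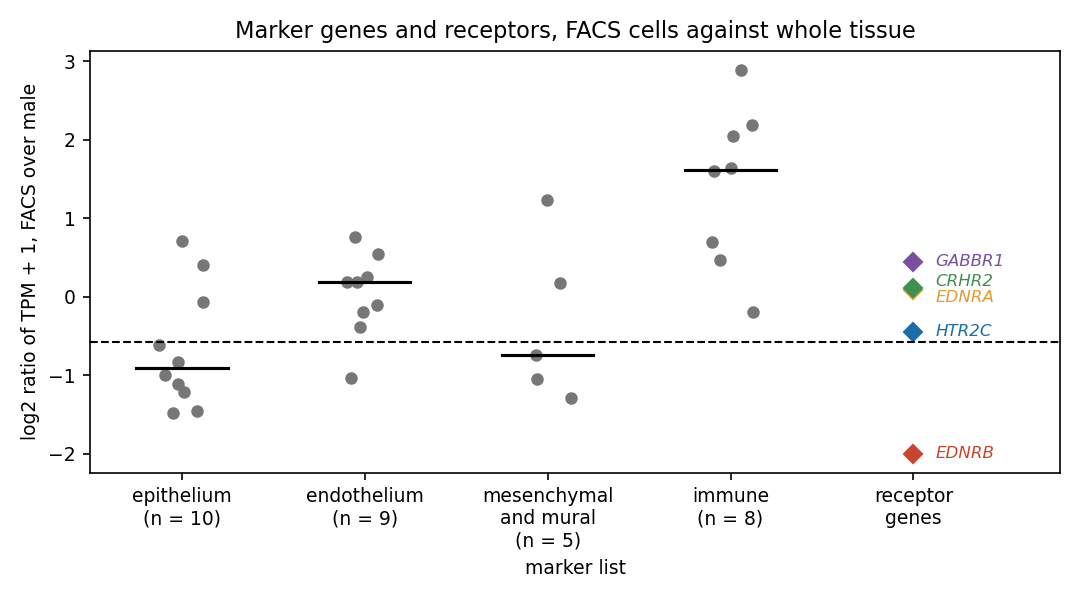
Log2 ratio of TPM + 1, FACS over male, of marker genes (grey points, 1 per gene, with the list median as a bar) and of the 5 receptor genes (diamonds). The dashed line is the median of all genes, -0.58. EDNRB at -2.00 lies below every marker shown, and the immune markers lie highest.

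The comparison of female with male choroid plexus asks whether the receptors differ by sex. EDNRB was lower in the female library by a factor of 1.57 (1.51 to 1.63), EDNRA by 1.39 (1.20 to 1.60), HTR2C by 1.19 (1.18 to 1.21) and CRHR2 by 1.13 (1.05 to 1.22). GABBR1 was higher by a factor of 1.15 (1.08 to 1.24). As only 1 pool of each sex was sequenced, sex cannot be told apart from any other difference between these pools.

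No gene of the 5 reached a factor of 2, which 0.44% of all genes passed upwards and 0.959% downwards. The median log2 ratio over 13869 genes was -0.16. HTR2C at -0.26 and CRHR2 at -0.17 were close to it, at percentiles 30.6 and 46.5, and EDNRA at -0.37 was at percentile 14.4. EDNRB at -0.64 was at percentile 2.91 and GABBR1 at 0.20 at percentile 93.0, toward opposite ends of the distribution. Among the GPCRs EDNRB had the fourth lowest ratio, and 3 of the 40 named markers were lower still, down to -1.15. The immune markers had a median of -0.53, the endothelial ones of -0.35 and the epithelial ones of -0.14 in this comparison, and their part in the EDNRB difference was not tested. As a share of counts, EDNRA had a female to male ratio of 0.901 (0.779 to 1.04) and CRHR2 of 0.965 (0.898 to 1.04), neither apart from no difference.

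In the kidney proximal tubules, HTR2C, EDNRB, CRHR2 and GABBR1 were listed at 0 and only EDNRA had counts. For this comparison, both libraries were freed of mitochondrially encoded genes and their TPM scaled anew. EDNRA then had 1.22 TPM from 55 counts in the tubules against 5.06 TPM in the male choroid plexus, a ratio of 0.241 (0.178 to 0.319). As a share of counts the ratio was 0.472 (0.350 to 0.626), nearer to no difference. With mitochondrially encoded genes kept, EDNRA was at 0.340 TPM and under the cut-off.

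At the share of counts each gene had in the male choroid plexus, the tubule library would have held 18513 counts of HTR2C, 1740 of EDNRB, 458 of CRHR2 and 408 of GABBR1. A count of 0 allows up to 3 counts, or 4.08e-05% of the counts outside mitochondrially encoded genes. All 5 genes were lower than in the male choroid plexus by a factor of 2 or more, but so were 71% of all genes, while 12.1% were higher, and the median log2 ratio was -2.27. On counts scaled to a common total, EDNRA was at -0.99 and the number was 4. Listed zeros were common in this library, at 84 of the 106 GPCRs and 1339 of the 3441 genes as high as GABBR1 or higher in the male choroid plexus. For HTR2C the corresponding numbers were 29 of 124 genes and for EDNRB 180 of 718. Relative to the median of all genes EDNRA was higher in the tubules, at 0.82, and 4 genes were lower.

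Among 123 GPCRs and receptor tyrosine kinases with at least 1 TPM in the male choroid plexus, the genes most like each receptor were sought by the distance between log2 ratios to the male library in the other 3 libraries. CRHR2 was nearest to the orphan receptor GPR107 (distance 0.30), then to the PDGF receptor PDGFRB (0.45) and GABBR1 (0.53). GABBR1 was nearest to CRHR2 (0.53), GPR107 (0.57) and the receptor kinase TYRO3 (0.73). EDNRA was nearest to GPR31 (0.13), GPR153 (0.23) and the complement receptor C3AR1 (0.29), all with under 2 TPM in the male. HTR2C was nearest to the fibroblast growth factor receptors FGFR2 (1.92) and FGFR1 (2.62) and to EDNRB (2.69), and EDNRB to FGFR1 (1.75), FGFR2 (1.77) and the neurotrophin receptor NTRK2 (1.77). Where a pair of genes is listed at 0 in the tubules, that ratio follows from their male TPM and the pseudocount, and it makes up most of the distance between HTR2C and FGFR2. In the FACS library FGFR2 was at -0.38 and FGFR1 at -0.44, beside -0.45 for HTR2C and -2.00 for EDNRB. In the female they were at 0.02 and 0.01, beside -0.26 and -0.64. With 3 ratios a gene, likeness is a description.

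Of 81 genes listed for the signalling and ligand handling of these receptors, 15 could be given a name, and the names favour highly expressed genes. Of the 12 relatives of the receptors only HTR2B, another serotonin receptor, was named, with 0.600 TPM in the male, 0.440 in the female and 0.50 in the FACS library. None of the 15 ligand genes was named, and GABBR2, the partner of GABBR1, was not analysed here. SLC29A4, a monoamine transporter that carries serotonin, had 109.7 TPM in the male, 87.8 in the female and 99.7 in the FACS library.

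The G protein subunits with a name were present in each choroid plexus library. GNAS, the alpha subunit of Gs to which CRHR2 couples, had 123 TPM in the male, 98.1 in the female and 67.2 in the FACS library. GNAI2, an alpha subunit of Gi, had 127, 111 and 165 TPM, and GNAI3 had 60.6, 49.1 and 39.5 TPM. ITPR1, the IP3 receptor through which Gq signals release Ca2+, had 92.6, 74.0 and 40.6 TPM. Over the 15 named genes, the median log2 ratio of FACS to male was -0.57, near that of all genes. Among those lower by a factor of 2 or more were GNB1, a beta subunit of G proteins, ITPR1 and RGS5, and 0 were higher by that factor, beside the 25.5% and 4.61% of all genes given above.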

How the data were processed

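The authors used STAR 2.7.2a for alignment to the Ensembl build Rnor_6.0 and RSEM 1.3.3 for quantification, which gave the deposited expected counts (estimated fragments per gene, not whole by necessity), the deposited TPM and the effective length in bases. Strandedness is not given in the sources used here, so reads of overlapping genes cannot be assigned by strand. In the RefSeq table (GRCr8, used for neighbours only) small RNA genes lie within Htr2c and a long noncoding RNA gene overlaps or adjoins Ednra.

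Gene names were those that the supplementary lists pair with 2452 of the 32883 IDs, and 0 IDs matched the RefSeq table. Values of these lists were not used. Log2 ratios were taken after 1 TPM was added as a pseudocount, so that changes of low genes are understated, over genes at or above 0.5 TPM in either library. Levels carry exact Poisson intervals, and ratios exact conditional (Clopper-Pearson) intervals, at 95% and for counting error only, taking lengths as fixed and expected counts rounded to whole numbers. A floor of 3 counts was 1.06e-05 to 1.26e-05% of a library's total. For the proximal tubules, the 13 mitochondrially encoded genes were removed and the rest rescaled to 1000000 in place of the authors' mapping without them. Named genes were the receptors, their neighbours by rank, the 3 most alike receptors of each, the 3 GPCRs of at least 5 TPM with the largest ratio in each direction, and the marker and pathway lists. A result for 1 gene of the pathway list is not reported here. The members and lists were chosen with earlier results of these data known. Markers of neurons and glia had a name for 1 of 7 genes (AQP4, at most 2.98 TPM), and those of the proximal tubule for 7 of 9, which summed to 2965 TPM in the tubules and 117 to 141 TPM elsewhere. The steps were tested on simulated data and run with Python 3.11.15, numpy 2.4.6, pandas 2.3.3, scipy 1.17.1 and matplotlib 3.10.9.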

Additional observations from a re-analysis of the deposited data

How the results depend on the processing

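With 1 library per group, no replicate could be left out, and no paired analysis was possible because each group has 1 library. The alternatives were pseudocounts of 0.1 and 0.5 TPM, expected counts scaled to a common total, removal of the 10 highest or the mitochondrially encoded genes, ratios relative to the median of all genes, a factor of 1.5, cut-offs of 1 and 5 TPM, the female as the whole tissue, ranks by count or among transcribed GPCRs and, chosen after seeing the data, the transcript length of the male library. The cut-offs were run for the share of all genes only. For FACS against male tissue, 1 gene (EDNRB) passed the factor under each alternative run on this count except relative to the median of all genes, where 2 did (EDNRB and GABBR1). EDNRB ranged from -2.04 to -1.36. HTR2C ranged from -0.48 to 0.14 and was above 0 in 1 of 8 alternatives. For female against male tissue, 1 gene (EDNRB) passed a factor of 1.5 in place of 0 passing a factor of 2, and with a cut-off of 5 TPM 0.766% of all genes differed by a factor of 2 in either direction, against 1.4%. For the tubules, EDNRA was at 0.82 relative to the median of all genes, against -1.45, since that median was -2.27, and at -0.99 on counts scaled to a common total, and the receptors past a factor of 2 were then 4 in place of 5. The count of receptors among the 20 highest GPCRs was 4 in each choroid plexus library under each way of ranking. For the male library ranked by TPM, this count was known when the genes were chosen. Depth limits EDNRA most, with 343 to 528 counts in the choroid plexus libraries.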
